A study of Mus musculus with 9 samples.

Results

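The genes described are 10 rows of the deposited gene table that carry the symbols Yap1, Wwtr1, Tead1, Tead3, Ankrd1, Amotl2, Ctgf, Cyr61, Wisp1, and Wisp2. They were chosen by symbol, each symbol matched 1 row of the 43346 genes in the table, and all 10 passed the filter that left 16877 genes to test. The libraries were made from lung cells of aged male Col1a1-GFP mice on an FVB background, which carry a green fluorescent reporter under the control of the collagen I promoter. The labels give the age as 72 weeks and the design text as 18 months. Aged sham mice (4 libraries) received saline and aged bleo mice (5 libraries) received bleomycin, which injures the lung and causes fibrosis, in both cases as a single dose into the trachea. Lungs were digested 30 days later and cells were sorted as GFP+, CD45-, CD31-, and EpCAM-. The reporter selects cells in which the collagen promoter is active, so the sort takes fibroblasts together with any other GFP+ mesenchymal cell.

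YAP, encoded by Yap1, and TAZ, encoded by Wwtr1, are transcription coactivators held in check by the Hippo kinases. When the LATS kinases phosphorylate them they stay in the cytoplasm, and when cells are stretched or sit on stiff matrix they enter the nucleus and bind DNA through the TEAD factors. Ctgf, Cyr61, Ankrd1, and Amotl2 are genes widely used as readouts of this activity. Ctgf, Cyr61, Wisp1, and Wisp2 also belong to the CCN family (Ccn2, Ccn1, Ccn4, and Ccn5 under the newer names), secreted proteins that bind integrins and matrix and act on fibroblasts. The RNA levels given here do not measure phosphorylation or localization of YAP and TAZ.

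In aged fibroblasts after bleomycin, the targets Ankrd1, Cyr61, Ctgf, and Amotl2 fell, with aged sham 1.99-fold, 1.88-fold, 1.82-fold, and 1.63-fold above aged bleo. Of the effectors, Tead1 rose 1.58-fold, and Yap1, Wwtr1, and Tead3 were not called. Wisp1 rose 8.43-fold, whereas Wisp2 was not called. A gene was called where its FDR, the Benjamini-Hochberg adjusted p-value of edgeR over all genes tested, was under 0.10 and its fold change was over 1.5. By this rule 2 of the 10 genes were higher, 4 were lower, and 4 were not called, where 12.3% of all tested genes were called higher and 11.5% lower.

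The collagen and fibroblast markers were abundant in every library but did not move one way. Of the 8 listed, 4 were higher (among them Col1a1, from 4150.5 ± 407 CPM to between 13547 and 25929 CPM in the aged bleo libraries), 2 were lower, and 2 were not called. CPM is the count of a gene scaled by the total of its library and by TMM, and ± gives the SD (n = 4 aged sham, n = 5 aged bleo). The lower ones were Dcn, which fell from 8114 to 2792 CPM, and Fbln1, which fell from 2486 to 932 CPM (log2 fold changes -1.54 and -1.42, FDR 0.00667 and 0.0317). Transcripts of other cells remained. The summed level of 7 leukocyte markers lay between 104 and 394 CPM for aged sham libraries and between 112 and 613 CPM for aged bleo libraries, and 1 of the 7 was called, higher. That of 7 neutrophil markers lay between 169.5 and 1017 CPM and between 84.8 and 906 CPM, and 0 of the 6 tested were called by edgeR (0 had an unadjusted p under 0.05 in edgeR, DESeq2, or limma). The sum of 8 macrophage markers was 141 to 264 CPM and 445 to 1502 CPM, with 4 called higher. For all 3 of these lists aged sham 4 and aged bleo 4 had the highest sum of their group. The 8 epithelial markers summed to 15.4 to 98.6 CPM and to 18.6 to 55.0 CPM, where Epcam, which the sort gated on, was at 0.592 and 0.667 CPM, Ager fell from 19.8 to 1.98 CPM, and Krt8 rose from 1.49 to 3.25 CPM (FDR 9.99e-04 and 0.00457). Mesothelial, lymphocyte, and erythroid sums were at most 161, 23.0, and 16.4 CPM. Of 8 mesothelial markers 1 was called, Rspo1, which fell from 32.0 to 11.5 CPM (FDR 0.00533), while Msln was at 7.76 and 13.2 CPM. Of 7 tested lymphocyte markers 4 were lower, and the 4 tested erythroid markers were not called. The total counts per library ranged from 49921946 to 68260600, and each of the 10 genes had at least 311 counts in every library. The names of the libraries in the deposited data, unlike the replicate numbers used here, end in a number whose meaning is not given. Aged bleo 4 alone shares this end number with the aged sham libraries, aged bleo 1 to 3 share another, and that of aged bleo 5 is its own. For the aged bleo libraries other than aged bleo 4, whatever the end number marks cannot be told apart from the treatment.

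The promoters show the letters through which TEAD factors are known to recognise DNA. The core GGAATG, searched on both strands so that CATTCC counts as a match, was sought in the 250 bases before each transcription start in RefSeq (build GRCm38.p6). Promoters of 6 of the 10 genes were matched by symbol, namely those of Yap1, Wwtr1, Tead3, Ankrd1, Amotl2, and Cyr61. No promoter was matched for Tead1, Ctgf, Wisp1, and Wisp2, so these were not searched. Each of the 6 held the core in at least 1 of its promoters, whereas 14.3% of 26734 genes did. Cyr61, Ankrd1, and Amotl2 are known readouts of YAP and TAZ, which act through TEAD, so this comparison is a description and not a test. Below are those of the called targets and, for comparison, that of Wwtr1, which was not called. They are written 5′ to 3′ on the strand of the gene and end at the last base before the start, with the core in capitals.
Cyr61: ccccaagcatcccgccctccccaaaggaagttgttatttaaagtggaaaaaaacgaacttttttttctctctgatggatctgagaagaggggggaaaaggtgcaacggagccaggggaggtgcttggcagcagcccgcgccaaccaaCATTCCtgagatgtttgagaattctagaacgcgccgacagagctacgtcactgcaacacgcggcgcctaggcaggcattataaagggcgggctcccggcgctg
Ankrd1: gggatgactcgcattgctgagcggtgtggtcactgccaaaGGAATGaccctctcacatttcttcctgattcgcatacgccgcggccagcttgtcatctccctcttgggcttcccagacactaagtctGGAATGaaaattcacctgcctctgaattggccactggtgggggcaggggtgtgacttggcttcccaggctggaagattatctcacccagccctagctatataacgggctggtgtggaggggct
Amotl2: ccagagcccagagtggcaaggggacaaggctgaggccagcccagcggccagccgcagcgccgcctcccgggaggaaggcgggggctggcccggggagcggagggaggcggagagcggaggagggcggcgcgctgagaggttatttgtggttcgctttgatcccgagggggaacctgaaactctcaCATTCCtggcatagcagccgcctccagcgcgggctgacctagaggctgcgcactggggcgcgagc
Wwtr1: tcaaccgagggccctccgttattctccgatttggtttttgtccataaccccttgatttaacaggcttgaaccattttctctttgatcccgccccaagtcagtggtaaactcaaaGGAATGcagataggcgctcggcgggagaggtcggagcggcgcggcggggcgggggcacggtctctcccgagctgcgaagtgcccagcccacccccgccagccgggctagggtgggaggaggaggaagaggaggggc
The Cyr61 sequence lies on the minus strand at chr3:145649986-145650235 and that of Ankrd1 on the minus strand at chr19:36119845-36120094. The Amotl2 sequence lies on the plus strand at chr9:102717554-102717803 and that of Wwtr1 on the minus strand at chr3:57575911-57576160. For Amotl2 this is inside the deposited span of the gene, which begins at 102716672, so the RefSeq start used here lies further downstream. The core began 103 bases before the start in Cyr61, 210 and 123 bases before it in Ankrd1, 65 in Amotl2, and 136 in Wwtr1. Neither the AP-1 letters TGANTCA, held by 7.81% of genes in this window, nor the CArG box of serum response factor, held by 1.64%, occurred in the promoters of the 6 genes. A match is a run of letters and not a measured binding site. The core was found both in genes that fell and in genes that were not called, so its presence did not separate them.

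The coactivators themselves varied little. Yap1 (ENSMUSG00000053110, chromosome 9, 7931999 to 8004596, minus strand) was at 121, 125, 115, and 109 CPM in aged sham 1 to 4 and at 137, 129, 138, 122, and 132 CPM in aged bleo 1 to 5. Only the lowest aged bleo library reached into the range of aged sham. The log2 fold change was 0.16 with a standard error of 0.07 (95% interval 0.01 to 0.31, FDR 0.0861), below the fold threshold. Wwtr1 (ENSMUSG00000027803, chromosome 3, 57455649 to 57575910, minus strand) was within 163 to 172 CPM in aged sham and at 199.5, 204, 194, 144, and 173 CPM in aged bleo 1 to 5. It was higher than any aged sham library in 4 of the 5 aged bleo libraries, while aged bleo 4 was the lowest of all. Its log2 fold change was 0.14 with a standard error of 0.10 (95% interval -0.09 to 0.38, FDR 0.313). On the length-scaled FPKM values of the authors, the ratio of Wwtr1 to Yap1 was 2.53 to 2.91 in aged sham and 2.28 to 3.06 in aged bleo, so TAZ transcript exceeded YAP transcript in every library and the ranges of the ratio overlapped.

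Of the TEAD genes, which encode the DNA-binding partners, Tead1 rose and Tead3 was not called. Tead1 (ENSMUSG00000055320, chromosome 7, 112679318 to 112906807, plus strand) was at 132, 83.3, 98.8, and 99.9 CPM in aged sham 1 to 4 and at 155, 140.2, 168, 156, and 199.7 CPM in aged bleo 1 to 5. The groups did not overlap, and the gap between the highest aged sham and the lowest aged bleo library was small. Over all tested genes, 32.2% had groups that did not overlap, 16.1% in each direction. Tead1 had a log2 fold change of 0.66 with a standard error of 0.15 (FDR 0.00891). It fell under the fold threshold without aged sham 2 (0.57) or without aged bleo 5 (0.58), and 1 of the 10 genes instead of 2 was then called higher. Tead3 (ENSMUSG00000002249, chromosome 17, 28331671 to 28350805, minus strand) had a lowest and highest level of 43.9 and 58.1 CPM in aged sham against 50.2 and 64.6 CPM in aged bleo, with a log2 fold change of 0.13 and a 95% interval from -0.10 to 0.37 (FDR 0.346). The other TEAD genes, which are not among the 10, were both called higher. Tead2 went from 20.7 ± 2.76 CPM (SD, n = 4) to 33.8 ± 6.24 CPM (SD, n = 5), with a log2 fold change of 0.70 ± 0.15 (standard error) and an FDR of 0.00754. Tead4 was scarce, at 0.224 ± 0.123 CPM and 1.05 ± 0.356 CPM (log2 fold change 2.21, standard error 0.39, FDR 0.00319). Within the same library, the FPKM ratio of Tead1 to Tead3 ranged from 0.567 to 0.939 in aged sham and from 0.850 to 1.36 in aged bleo.

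The VGLL proteins compete with YAP and TAZ for TEAD. Vgll4 averaged 53.9 ± 5.35 CPM (SD, n = 4) with saline and 72.4 ± 3.80 CPM (SD, n = 5) with bleomycin, higher in every aged bleo library but under the fold threshold (log2 fold change 0.42, standard error 0.08, FDR 0.00423). Vgll3 had a log2 fold change of -0.42 (standard error 0.12, FDR 0.0236), also under it. Vgll1 and Vgll2 had at most 1 count in any library and were not tested. In the list of YAP, TAZ, TEAD, and VGLL genes, 3 of the 8 tested genes were called, all higher and all TEAD genes. The share called was 37.5%, where 23.8% of all tested genes were called, and 4 of the 8 are among the 10 genes described. The median log2 fold change of the list was 0.29 where that of all tested genes was 0.01.

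**Figure D1:**
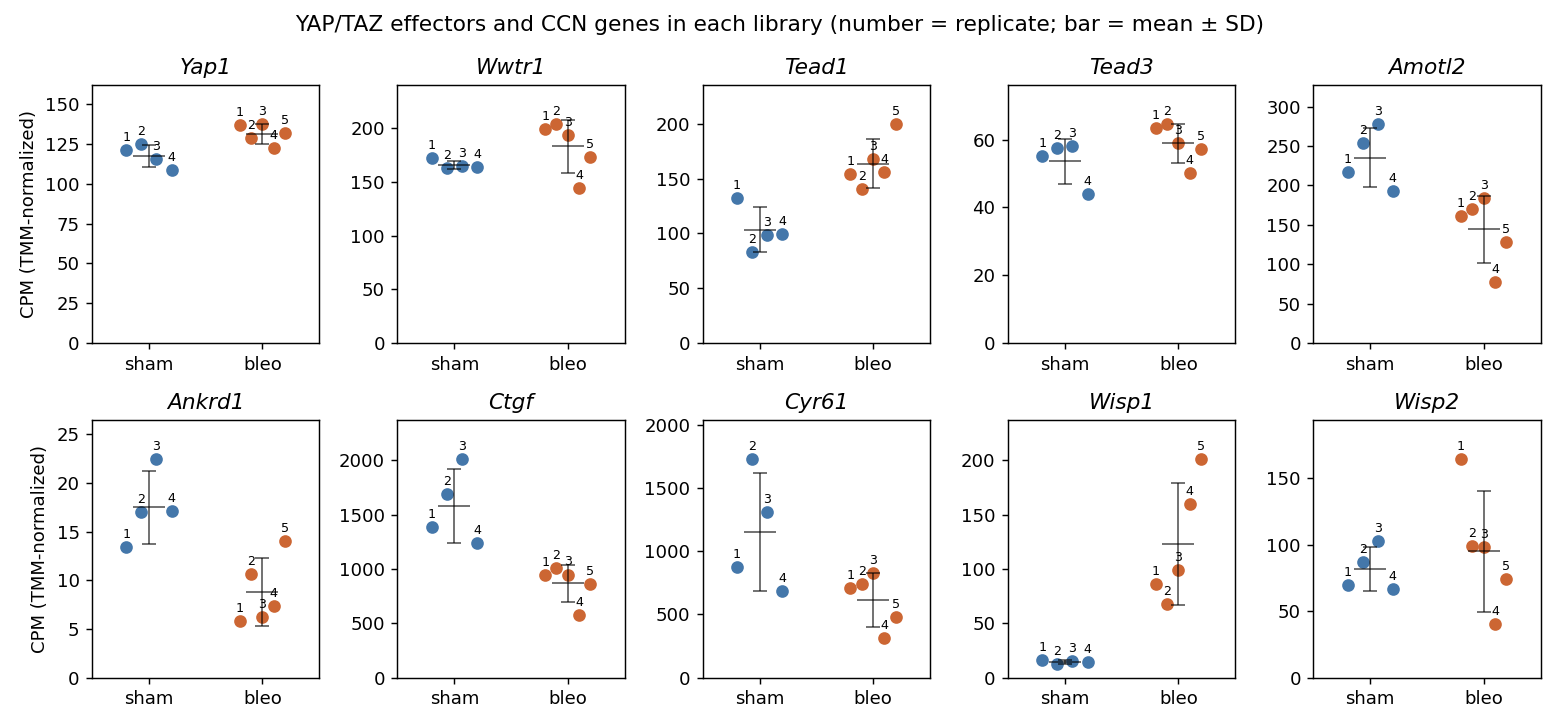
TMM-normalized CPM of the 10 genes in each library, 1 panel per gene with its own linear axis from 0. Points are libraries numbered by replicate (blue, aged sham; orange, aged bleo) and black bars give the mean and SD. Wisp1 and Tead1 lie higher and Ctgf and Amotl2 lower in every aged bleo library, Cyr61 and Ankrd1 are lower with overlap, and Yap1, Wwtr1, Tead3, and Wisp2 overlap.

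The targets of YAP and TAZ among the 10 genes all fell. Ctgf (ENSMUSG00000019997, chromosome 10, 24595442 to 24598683, plus strand), which encodes connective tissue growth factor, was at 1382, 1688, 2011, and 1237 CPM in aged sham 1 to 4 and at 946, 1005, 949, 579.9, and 863 CPM in aged bleo 1 to 5. Every aged bleo library lay below every aged sham library. The mean fell from 1579.6 ± 344 CPM (SD, n = 4) to 869 ± 169 CPM (SD, n = 5), a log2 fold change of -0.86 with a standard error of 0.19 (FDR 0.00951). Ctgf kept its call with any single library left out (log2 fold change -0.97 to -0.72).

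A gene on the other strand shares sequence with Ctgf. Gm15270 (chromosome 10, 24549441 to 24597108, minus strand) overlaps 1667 of the 3242 bases that Ctgf spans in the table. The kit named in the labels (TruSeq RNA v2) is one that does not mark strand, and the strand setting of the counting was not given, so reads of the shared stretch cannot be told apart. The count of Gm15270 was 15.6% to 19.5% of that of Ctgf in every library, and its log2 fold change was -0.84 (standard error 0.23, FDR 0.0189). An antisense gene at each of Yap1, Wwtr1, and Tead1 had at most 198, 3, and 39 counts in a library.

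Cyr61 (ENSMUSG00000028195, chromosome 3, 145646971 to 145649985, minus strand), another secreted CCN protein induced by serum and by stretch, was the most variable of the lower genes in aged sham. It was at 876, 1729.9, 1309, and 685 CPM in aged sham 1 to 4 and at 710.3, 739, 825, 312, and 477 CPM in aged bleo 1 to 5. Aged sham 4 lay below 3 of the aged bleo libraries, so the groups overlapped. The log2 fold change was -0.91 with a standard error of 0.34 (FDR 0.0612). The call depended on single libraries, since the FDR was 0.180 without aged sham 2 (log2 fold change -0.64), 0.129 without aged sham 3 (-0.84), and 0.126 without aged bleo 5 (-0.83).

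Amotl2 (ENSMUSG00000032531, chromosome 9, 102716672 to 102733418, plus strand), a target whose product, an angiomotin, binds YAP and restrains it, was at 217, 253, 278, and 193 CPM in aged sham 1 to 4 and at 161, 169.7, 184, 77.7, and 129 CPM in aged bleo 1 to 5. The groups did not overlap. Amotl2 had a log2 fold change of -0.71 with a standard error of 0.23 (FDR 0.0403). Without aged bleo 4 it was -0.56 with an FDR of 0.0183, under the fold threshold.

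Ankrd1 (ENSMUSG00000024803, chromosome 19, 36111965 to 36119844, minus strand), which encodes a muscle ankyrin repeat protein found in the nucleus and the sarcomere, had the lowest FPKM of the 10 genes in aged bleo. It was at 13.4, 17.0, 22.5, and 17.1 CPM in aged sham 1 to 4 and at 5.78, 10.7, 6.21, 7.32, and 14.0 CPM in aged bleo 1 to 5. Aged bleo 5 lay just above aged sham 1, and the other aged bleo libraries lay below all of aged sham. The log2 fold change was -0.99 with a standard error of 0.27 (FDR 0.0213), and it ranged from -1.22 to -0.84 with single libraries left out. The 8 cardiac muscle markers, listed because heart muscle also expresses Ankrd1, summed to 79.0 to 113 CPM in aged sham and 43.6 to 188 CPM in aged bleo. Most of the sum was Actc1, at 74.3 ± 16.7 CPM (SD, n = 4) and 84.9 ± 56.7 CPM (SD, n = 5). Myh6 was at 1.58 ± 0.679 CPM (SD, n = 4) and 0.590 ± 0.691 CPM (SD, n = 5). Of the 6 tested markers 1, Myl7, was called, lower (log2 fold change -1.08, FDR 0.0595). Over all tested genes, 11.5% were called lower. The median log2 fold change of the 6 was -0.47, and 2 of the 6 were above 0.

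Other transcripts were lower in the same comparison. The 13 immediate early genes listed belong to a class that growth factors, stress, and tissue digestion switch on quickly. Of these, 10 were lower, 2 (the heat shock genes Hspa1a and Hspa1b) were higher, and Ier3 was not called. Their median log2 fold change was -0.86. Over all tested genes, 11.5% were called lower and 12.3% higher. Fos was at 3556, 4307, 4385, and 3289.5 CPM in aged sham 1 to 4 and at 2549, 2739, 2219.8, 1319, and 1768 CPM in aged bleo 1 to 5. Egr1 had a log2 fold change of -1.07 (standard error 0.28, FDR 0.0167) and Atf3 one of -2.17 (standard error 0.33, FDR 0.00177). Summed with the heat shock pair, the 13 genes lay between 19086 and 24869 CPM in aged sham and between 7754 and 15707 CPM in aged bleo. As a percentage of the aged sham mean, the 11 listed genes without the heat shock pair summed to 56.5%, 66.9%, 56.0%, 31.4%, and 35.4% in aged bleo 1 to 5. In the same order Ctgf was at 59.9%, 63.7%, 60.1%, 36.7%, and 54.6% of its aged sham mean. Cyr61 was at 61.8%, 64.3%, 71.7%, 27.1%, and 41.5%. Ankrd1 had another order, at 33.0%, 61.0%, 35.5%, 41.8%, and 80.3%, with its lowest aged sham value in aged sham 1. For Ctgf and Cyr61, as for the immediate early sum, aged bleo 4 was the lowest library of its group and aged sham 4 the lowest of the aged sham group. Aged bleo 5 was the next lowest of the aged bleo group in each of these.

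The smooth muscle and pericyte markers were mixed. Their sum, most of it Myh11 (1375 ± 366 CPM with saline and 616 ± 291 CPM with bleomycin), lay between 1516 and 2970.1 CPM for aged sham libraries and between 916 and 1920.4 CPM for aged bleo libraries, again with the lowest value of each group in aged sham 4 and aged bleo 4. Of the 8 markers, Myh11, Cnn1, and Kcnj8 were lower, Notch3 was higher, and 4 were not called. As a percentage of its aged sham mean, the median marker was at 87.4%, 83.4%, 73.3%, 54.6%, and 108.7% in aged bleo 1 to 5, where the sum was at 76.9%, 85.6%, 69.9%, 40.8%, and 64.3%, so aged bleo 5 was above the aged sham mean by the median and below it by the sum. The 8 endothelial markers summed to 164.6 to 203 CPM and to 27.5 to 72.5 CPM, mostly through Tek, which fell from 161 to 28.8 CPM. Of the 7 tested, Kdr was called higher (log2 fold change 0.61, FDR 0.04998), and Pecam1 was at 6.12 ± 0.509 CPM (SD, n = 4) and 4.34 ± 1.45 CPM (SD, n = 5) and was not called, like the other 4. The leukocyte marker Ptprc was at 86.9 ± 59.0 CPM (SD, n = 4) and 64.9 ± 66.2 CPM (SD, n = 5), and the macrophage marker Lyz2 rose from 117 ± 33.6 CPM to 627 ± 303 CPM. Without aged bleo 4 and aged sham 4 together, the log2 fold change was -0.87 for Ctgf, -0.94 for Cyr61, -0.65 for Amotl2, and -0.96 for Ankrd1 (FDR 0.00604, 0.0322, 0.0136, and 0.0678), and all 4 kept their calls. The part of the immediate early genes in the lower targets was not tested. Nor was that of the smooth muscle, cardiac muscle, endothelial, leukocyte, neutrophil, and macrophage transcripts. In bulk samples such as these, fewer cells of a type and less RNA per cell cannot be told apart.

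**Figure D2:**
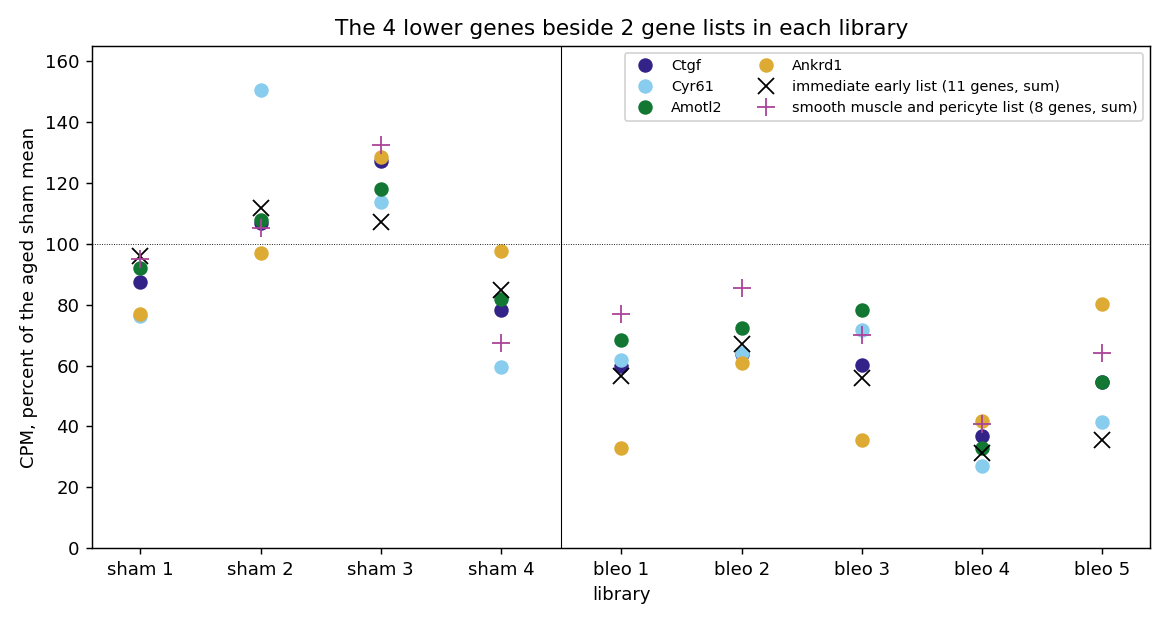
CPM of Ctgf, Cyr61, Amotl2, and Ankrd1 (dots), of 11 summed immediate early genes (black crosses), and of 8 summed smooth muscle and pericyte markers (plus signs) in each of the 9 libraries, as a percentage of the aged sham mean (dotted line). Ctgf, Cyr61, and Amotl2 are lowest in aged bleo 4 among the aged bleo libraries, as are both sums, whereas Ankrd1 is lowest in aged bleo 1. The 11 genes leave out Hspa1a and Hspa1b, which were higher.

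Wisp1 was the CCN gene that rose. Wisp1 (ENSMUSG00000005124, chromosome 15, 66891320 to 66923201, plus strand), which encodes a secreted protein first described as a target of Wnt signalling, was at 16.6, 12.2, 15.4, and 14.1 CPM in aged sham 1 to 4 and at 85.8, 67.6, 99.2, 160.2, and 201 CPM in aged bleo 1 to 5. The lowest aged bleo library lay far above the highest aged sham library, and the aged bleo libraries also differed widely among themselves. Aged bleo 4 and aged bleo 5 were the highest. Their deposited names end in numbers other than that of aged bleo 1 to 3, and the part of whatever that number marks was not tested. The mean rose from 14.6 ± 1.89 CPM (SD, n = 4) to 123 ± 55.9 CPM (SD, n = 5), a log2 fold change of 3.08 with a standard error of 0.33 (95% interval 2.33 to 3.82, FDR 2.71e-04), and it stayed between 2.76 and 3.23 under the alternatives tried.

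Wisp2 (ENSMUSG00000027656, chromosome 2, 163820861 to 163833146, plus strand), a CCN protein that lacks the C-terminal domain of the others, was at 69.8, 87.1, 103, and 66.9 CPM in aged sham 1 to 4 and at 164, 98.6, 98.5, 40.3, and 73.9 CPM in aged bleo 1 to 5. Both the highest and the lowest value of the 9 libraries were in aged bleo. Wisp2 had a log2 fold change of 0.22 with a standard error of 0.34 (95% interval -0.53 to 0.98, FDR 0.639), and it was -0.068 without aged bleo 1. Nov (Ccn3), a CCN gene outside the 10, was at 174, 213, 241, and 221 CPM in aged sham 1 to 4 and at 119, 145, 93.7, 38.0, and 69.97 CPM in aged bleo 1 to 5. It fell without overlap of the groups (log2 fold change -1.19, standard error 0.32, FDR 0.0204). Wisp3 had at most 18 counts in a library and was not tested. In the CCN family 1 of 5 tested genes was higher and 3 were lower, where 12.3% of all tested genes were called higher and 11.5% lower. Of these 5, 4 are among the 10 genes described, and Nov is the other.

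Per length, the family was dominated by the same pair of genes in both groups. In aged sham, Cyr61 was at 239 ± 100.1 FPKM and Ctgf at 232 ± 53.5 FPKM (SD, n = 4), which did not differ beyond their spread. Wisp2 (17.8 ± 3.84), Amotl2 (15.7 ± 2.74), and Wwtr1 (14.6 ± 0.414 FPKM) followed closely together, and Yap1 (5.34 ± 0.388), Tead3 (5.13 ± 0.706), Ankrd1 (4.17 ± 0.914), and Tead1 (3.87 ± 0.755 FPKM) formed a lower step with overlapping spreads. Wisp1 was last at 1.11 ± 0.142 FPKM. In aged bleo, Ctgf was at 130.2 ± 22.7 FPKM and Cyr61 at 129 ± 42.0 FPKM (SD, n = 5). Wisp1, at 9.64 ± 4.55 FPKM, then lay beside Amotl2 at 9.80 ± 2.68 FPKM, and Ankrd1 was last at 2.15 ± 0.854 FPKM.

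The makeup of the CCN transcripts can be read within each library, where the scaling of the library cancels. Wisp1 made up 0.141% to 0.297% of the summed CCN FPKM in aged sham and 1.48% to 6.92% in aged bleo. Wisp2 made up 2.89% to 3.93% and 4.99% to 10.4%, so its share was higher in every aged bleo library although its level was not called. Ctgf and Cyr61, most of the sum, were lower in aged bleo, so a share can be higher without a higher level. In aged bleo 4 the share of Wisp2 was 4.99%, while its level of 40.3 CPM was the lowest of all libraries. The ratio of Ctgf to Cyr61 overlapped between the groups, at 0.692 to 1.28 and 0.816 to 1.32.

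**Figure D3:**
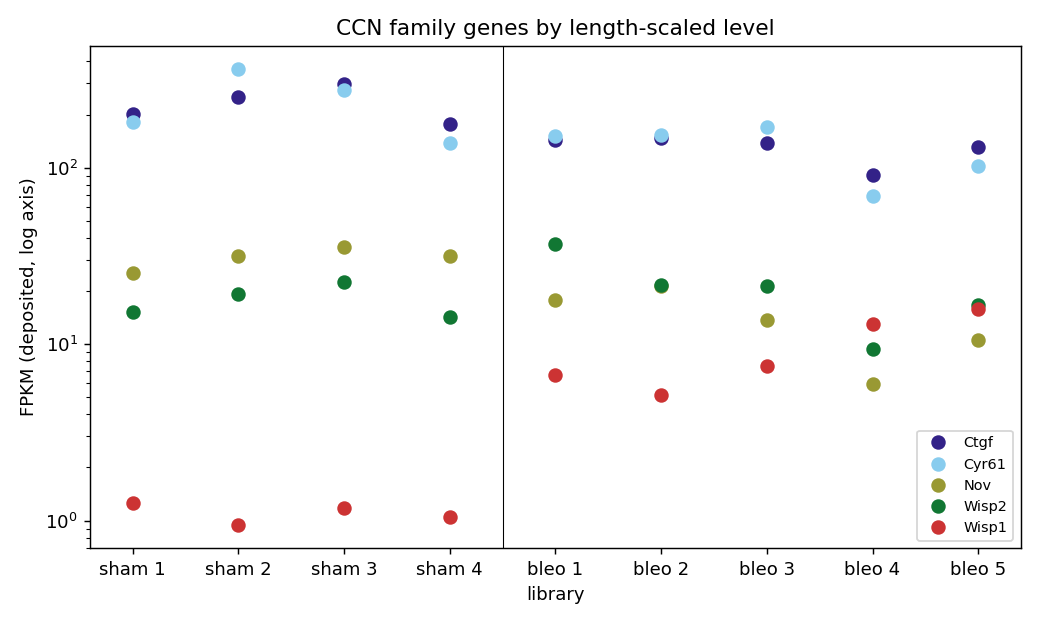
FPKM of 5 CCN genes in each of the 9 libraries on a log axis, 1 colour per gene, with aged sham to the left of the vertical line and aged bleo to its right. Ctgf and Cyr61 lie highest in both groups, and Wisp1 is the lowest of the 5 in every aged sham library but lies above Wisp2 and Nov in aged bleo 4.

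Of 15 kinases and adaptors, which relay the signal to LATS and from there to YAP and TAZ, 2 were called, both lower, a share called of 13.3% where 23.8% of all tested genes were called, with a median log2 fold change of 0.02. The lower ones were Wwc1 (KIBRA), an upstream activator, at 2.84 ± 0.754 CPM (SD, n = 4) and 1.04 ± 0.338 CPM (SD, n = 5), and Frmd6, a FERM domain protein, at 309 ± 21.01 CPM and 151 ± 49.88 CPM. Wwc1 had a log2 fold change of -1.45 (standard error 0.29, FDR 0.00538) and Frmd6 one of -1.03 (standard error 0.21, FDR 0.00629). The kinases Lats1 and Lats2 were not called, with log2 fold changes of 0.11 and 0.04 (FDR 0.427 and 0.809).

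Of 13 scaffolds and cadherins, 2 were higher and 1, Amotl2, was lower, a share called of 23.1% where 23.8% of all genes were called. Ajuba, a LIM protein that binds LATS, rose from 5.77 ± 0.645 CPM (SD, n = 4) to 20.1 ± 2.12 CPM (SD, n = 5), with a log2 fold change of 1.80 (standard error 0.11, FDR 2.17e-05). Fjx1 had a log2 fold change of 0.68 (standard error 0.13, FDR 0.00548).

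The wider list of YAP and TAZ target genes did not move one way. Of its 22 genes, 6 were higher, 6 were lower, and 10 were not called, with a median log2 fold change of 0.08. The share called was 54.5%, where 23.8% of all tested genes were called. The 4 genes described above account for 4 of the 6 lower ones, and of the other 18 genes 6 were higher and 2 lower. Foxf2, a forkhead factor, rose from 16.0 ± 2.93 CPM (SD, n = 4) to 81.0 ± 15.3 CPM (SD, n = 5), a log2 fold change of 2.34 (standard error 0.17, FDR 4.08e-05). Dock5, an activator of Rac, Nt5e, the ectonucleotidase CD73, and Ccdc80, a matrix protein, had log2 fold changes of 1.39, 2.02, and 0.79 (FDR 4.40e-04, 0.00227, and 0.0026). Axl, a receptor tyrosine kinase, fell from 1283 ± 94.7 CPM to 672 ± 119.9 CPM, and F3, tissue factor, fell from 175 ± 17.8 CPM to 70.3 ± 33.5 CPM, with log2 fold changes of -0.93 and -1.31 (FDR 0.00164 and 0.0163).

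Among 8 binding partners of CCN proteins, 1 was higher and 1 was lower, a share called of 25% beside 23.8% of all tested genes. The integrin subunit Itgb1 rose from 772 ± 30.8 CPM (SD, n = 4) to 1392 ± 257 CPM (SD, n = 5) (log2 fold change 0.85, standard error 0.14, FDR 0.0026), and Itgb3 fell from 69.2 ± 4.36 CPM to 45.5 ± 5.15 CPM (log2 fold change -0.61, standard error 0.09, FDR 0.00136).

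**Figure D4:**
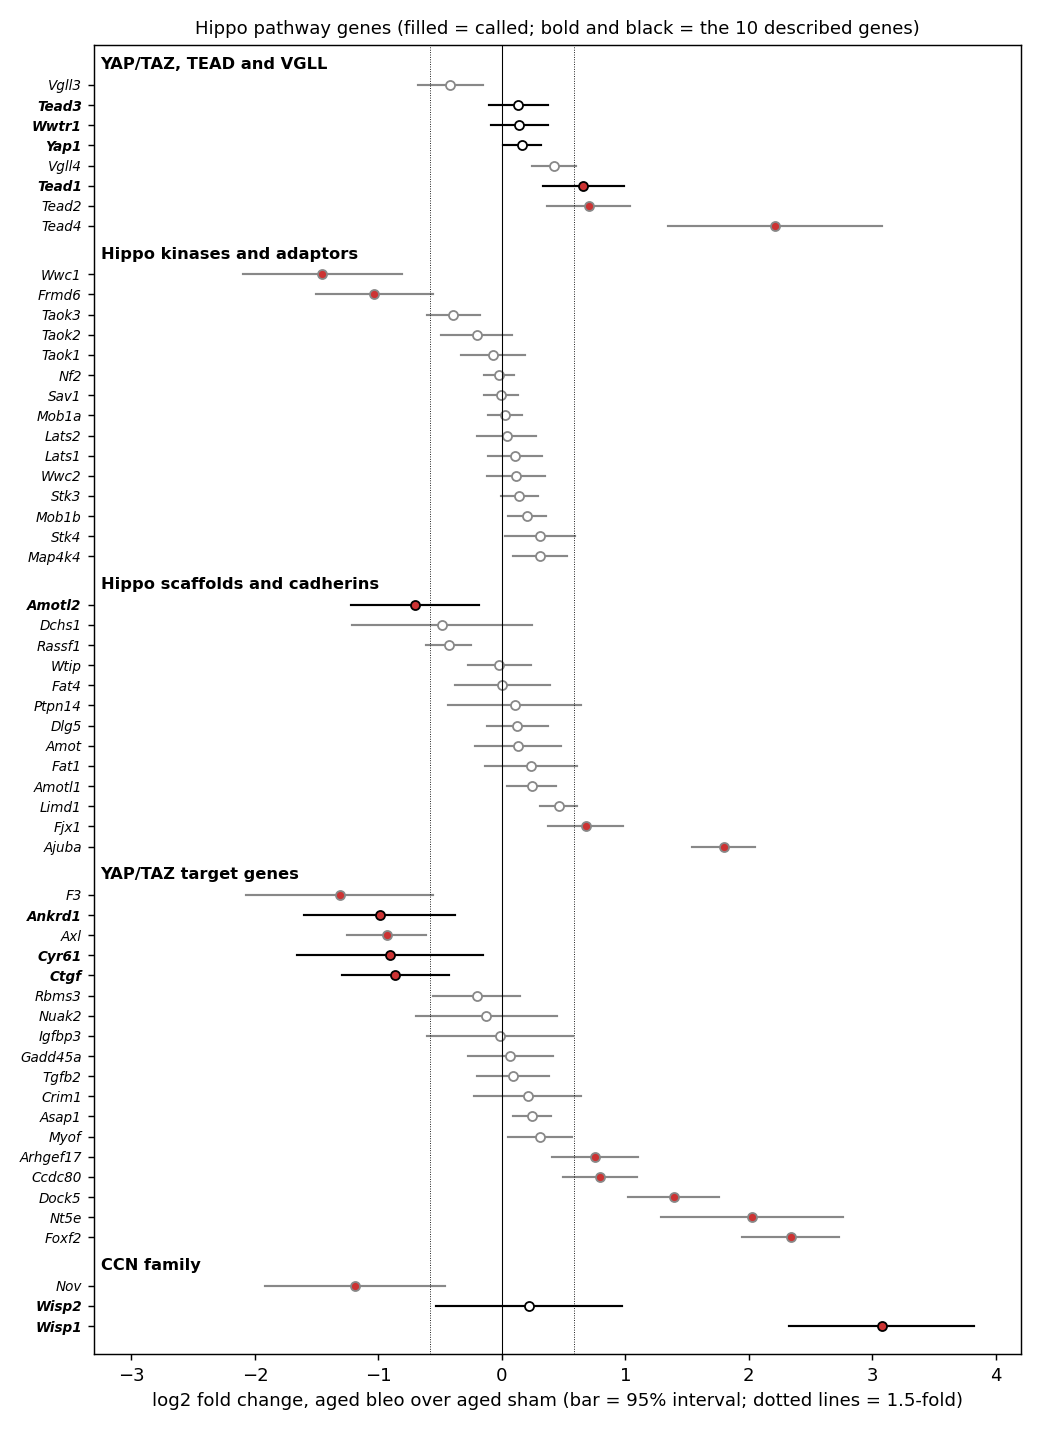
Log2 fold change (aged bleo over aged sham) with its 95% interval for the tested genes of 5 pathway lists, with called genes filled and the 10 described genes in black. Tead1, Tead2, Tead4, and Wisp1 lie to the right, Ctgf, Cyr61, Amotl2, and Ankrd1 to the left, and most Hippo kinases and adaptors near 0.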

How the data were processed

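RNA of sorted GFP+ lung cells was sequenced after poly-A selection in 9 libraries, 4 aged sham and 5 aged bleo. The authors deposited 1 table of 43346 genes with raw counts and FPKM values for each library. The submitters' processing notes name bcl2fastq, STAR 2.5.2b, Subread featureCounts, and mm10 (GRCm38), and a strand setting was not given in the sources used here. The deposited FPKM values rest on a library total 2.27 to 2.42 times the summed counts, so they were used only for the order of genes within a group and for ratios and shares within a library. Coordinates of genes are those of the table, and those of promoter sequences rest on RefSeq starts.

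Genes whose counts averaged 25 or more entered the quasi-likelihood test of edgeR 4.0.16 (R 4.3.3, TMM, two-sided), which takes the place of the moderated test of the study because the values are counts. CPM values are counts scaled by library total and TMM. Benjamini-Hochberg adjustment was over all genes tested, and standard errors were taken from the log2 fold change and F. The labels do not say that each library is 1 animal. The study gives n = 4 aged sham and n = 5 aged bleo, and describes its plotted points as independent mice or replicates of cell cultures. The p-values measure the spread between these libraries. The scripts were tested on simulated data. Alternatives were DESeq2 1.42.0, limma 3.58.1, other scalings, filters and thresholds, a replicate block, and leaving out libraries.

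The 10 genes and the lists were chosen with earlier results of these data known. Named are the 10 genes, up to 4 called genes with the smallest FDR in each direction of each pathway list, all CCN, TEAD, and VGLL genes, the 3 nearest profiles of each gene, defining cell markers, and Fos, Egr1, and Atf3. Further genes (Hspa1a, Hspa1b, Ier3, Lats1, Lats2, Cnn1, Kcnj8, Notch3, Tek, Kdr, Dcn, Fbln1, Ager, Krt8, Rspo1, Actc1, Myl7) were named after their values were seen.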

Additional observations from a re-analysis of the deposited data

How the results depend on the processing

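At stricter thresholds (FDR 0.05 and 2-fold), 1224 genes were called higher and 934 lower, and of the 10 genes 1 (Wisp1) was higher and 0 were lower by edgeR, 0 by DESeq2, and 1 by limma, where all 4 lower genes had an unadjusted p under 0.05 in edgeR. At these thresholds 1 gene of the YAP, TAZ, TEAD, and VGLL list, 1 scaffold or cadherin, 4 target genes, and 0 CCN binding partners were called (0 also by DESeq2 and limma, and 3 had an unadjusted p under 0.05 in edgeR). With single libraries left out, 1876 to 2314 genes were higher and 1639 to 2283 lower, and of the 10 genes 1 to 2 were higher and 3 to 4 lower. The calls were 2 to 3 for the YAP, TAZ, TEAD, and VGLL list, 2 to 3 for scaffolds and cadherins, 11 to 12 for target genes, and 1 to 3 for CCN binding partners, where the count was 1 without aged sham 3, aged bleo 2, or aged bleo 5. Wisp2 ranged from -0.068 (without aged bleo 1, a change of sign) to 0.41 (without aged bleo 4). The losses of Tead1, Cyr61, and Amotl2 are given with those genes, and their cause was not tested. Other scalings, filters, DESeq2, and limma changed no call of the 10 genes. It was not given whether equal replicate numbers pair the libraries, and the main test took them as names. With the replicate block, 1822 genes were higher and 1714 lower, and no call of the 10 genes changed. Of the 4 aged sham libraries, 1 correlated best with the aged bleo library of its own number, which does not settle whether they were paired. This was aged sham 4 with aged bleo 4 (r = 0.33), whose deposited names also share their end number.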

Other observations

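Genes whose centred log2 CPM profile over the 9 libraries lay nearest to that of each of the 10 genes were sought among 15269 genes, as a description. The nearest to Wisp1 was Inhba, which encodes the activin A subunit, with a root mean square difference of 0.20 on the log2 scale. Inhba was at 7.84, 5.90, 8.04, and 5.601 CPM in aged sham 1 to 4 and at 39.7, 23.8, 49.0, 93.3, and 94.6 CPM in aged bleo 1 to 5. Like Wisp1, it was highest in aged bleo 5 and aged bleo 4 and lowest of its group in aged bleo 2. Chn1os1 and AI115009 followed at 0.22 and 0.25. The nearest to Ctgf were its overlapping gene Gm15270 (0.09), RP23-456B9.23 (0.13), and Fbxo30 (0.14), and to Amotl2 they were Fam13c (0.11), Gm15270 (0.11), and Ppp1r12b (0.12). Rasl12, Bcam, and 2010300C02Rik lay nearest to Cyr61 (0.21 to 0.24), and Gm10222, Gm13340, and Nop58 to Ankrd1 (0.30 to 0.32). Elovl6, Eml4, and Rest lay nearest to Tead1 (0.08 to 0.10), Qsox2, Gtf2i, and Pip4k2c to Yap1, Arid1b, Rhbdd1, and Pla2g6 to Wwtr1, Trim3, Marveld1, and Adcy6 to Tead3, and Wscd2, Adamts8, and Cpxm2 to Wisp2.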
